A study of Mus musculus with 6 samples.

Results

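Fibronectin, periostin, tenascin-C, SPARC, elastin, 2 fibrillins and 3 lysyl oxidases build, decorate and crosslink the extracellular matrix, and the levels of their 10 genes were read in the right atria (RAs) of young mice with or without volume overload (VO). The genes Fn1, Postn, Tnc, Sparc, Eln, Fbn1, Fbn2, Lox, Loxl1 and Loxl2 were taken by symbol from a table of 54093 genes, and each symbol named a single protein-coding gene. The animals were wild-type C57BL/6 neonates of either sex. In the VO group, a needle puncture joined the abdominal aorta to the inferior vena cava, an aortocaval fistula that sends extra venous return to the RA, whereas the sham group was operated on without a fistula. RA myocardium was collected at P21 (postnatal day 21), and 3 libraries per group were sequenced. The labels number the libraries but do not tie them to separate animals, so the p-values measure the spread between these samples only.

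Fibronectin is a large glycoprotein that cells assemble into fibrils through integrins, and these early fibrils are a scaffold on which other matrix proteins are laid down. Elastic fibres have a core of crosslinked elastin on a mantle of fibrillin microfibrils, and they give the atrial wall and the large vessels their recoil. Lysyl oxidases oxidise lysines in elastin and collagen, which makes the covalent crosslinks. Periostin, tenascin-C and SPARC are matricellular proteins, which tune matrix assembly and cell adhesion and are known to be abundant in the developing or remodelling heart. In the heart most of these genes are read mainly from fibroblasts and vessel wall cells.

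Levels are given as FPKM, fragments per kilobase of gene divided by a size for each library, a unit in which genes of different length can be compared. That size was not the count of fragments on genes. The median-of-ratios factors of the deposited values were 1.00 in every library, so they were already on that scale. Each library held 15963082 to 17237903 fragments on genes. The members were read from as few as 60 fragments per library for Tnc to as many as 33894 for Eln. All 10 genes passed the filter of a mean of at least 1 FPKM over the 6 libraries, so all were among the 12627 genes tested. Fbn2 and Tnc passed through the VO libraries, since their sham means were 0.778 and 0.650 FPKM.

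In the sham RAs the highest level was that of Sparc, with a mean of 378 ± 31.1 FPKM (SD, n = 3). Eln followed with 68.7 ± 10.4 FPKM, and neither overlapped with its neighbour in the order. Loxl1 (38.0 ± 1.22 FPKM) and Postn (36.1 ± 2.88 FPKM) came next and overlapped with each other. Fn1 (20.6 ± 5.15 FPKM) and Fbn1 (17.6 ± 3.80 FPKM) overlapped likewise. Below them, Loxl2 was at 11.8 ± 1.85 FPKM and Lox at 5.86 ± 0.752 FPKM, each apart from its neighbours. Fbn2 and Tnc had the lowest levels and overlapped. The RA thus already carried abundant SPARC, elastin and LOXL1 transcripts at P21, while the fibrillin-2 and tenascin-C transcripts were near the limit of the filter.

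All 10 genes had a higher mean in the VO group than in the sham group, and in all 10 the highest level was that of the library VO 1. In 7 of the 10 every VO library lay above every sham library, a pattern met in 8.25% of all tested genes. The test of limma on log2(FPKM + 0.1) gave 5 of the 10 an unadjusted p under 0.05, all higher in VO, against 3.89% of all tested genes. Tnc passed the filter only through the VO libraries and was among both the 5 and the 7, so its place there is no support. With a filter of 0.1 FPKM, which Fbn2 and Tnc pass in sham, the counts in limma were again 5 and 7. All tested genes then had 3.73% and 8.04%. After Benjamini-Hochberg adjustment over all tested genes none of the 10 passed 0.05 in limma, with adjusted p from 0.404 to 0.619, and 0.00792% of the tested genes, a single gene, did pass. The median log2 fold change was 0.75 over the 10 genes and -0.01 over all tested genes. The smallest p that an exact permutation test reaches with 3 libraries a group is 0.1. The voom alternative on recovered fragments also left 0 of the 10 past adjustment. In these bulk samples, a larger share of a cell type and more RNA per cell cannot be told apart.

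**Figure D1:**
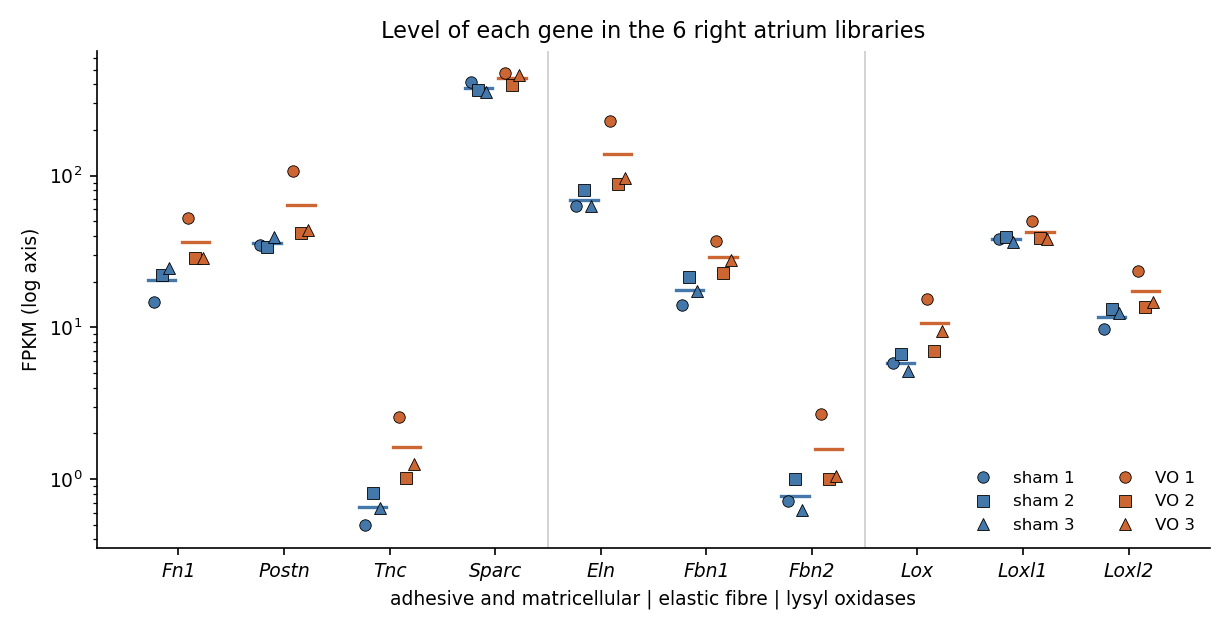
FPKM (log axis) of each gene in the 3 sham and 3 VO libraries, with a symbol for each library and a horizontal line at each group mean. The circle of VO 1 is the highest point for every gene, and the other VO libraries stand close to the sham libraries for Postn, Loxl1 and Sparc.

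VO 1 took a large part in these differences. It was the highest library for 10 of 10 genes, whereas it was the highest for 25.4% of all tested genes. When VO 1 was left out and the same genes were kept, all 10 log2 fold changes stayed above 0 and their median was 0.41. Without VO 1 the groups did not overlap for 7 genes, against 11.4% of all tested genes. Then 3 genes, Fbn1, Eln and Lox, had an unadjusted p under 0.05, against 2.51% of all tested genes. With all VO libraries kept, that count was 1 without sham 1 and 2 without sham 3. Fbn2 and Tnc had a mean under 1 FPKM once VO 1 was left out, and they were kept in this fit, which was chosen after seeing the data. On a score that averages the 10 centred log2 values, the sham libraries were at -0.48, -0.17 and -0.35 and the VO libraries at 0.91, -0.03 and 0.12. Both other VO libraries therefore had a higher score than each sham library, but they were closer to the shams than to VO 1.

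**Figure D2:**
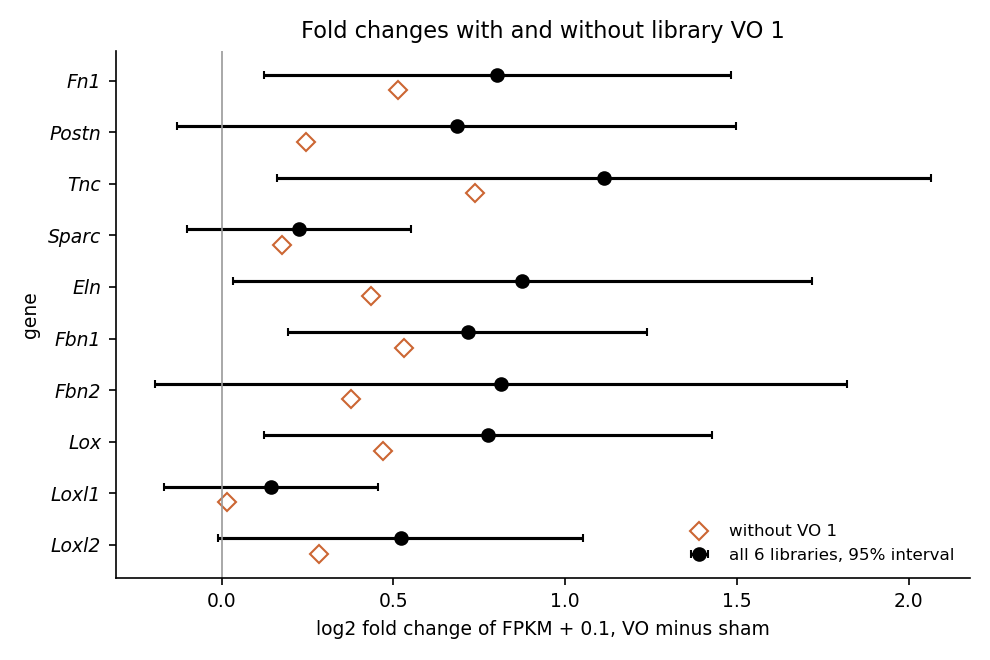
Log2 fold change of FPKM + 0.1, VO minus sham, for each gene with all 6 libraries (black points, bars for the 95% interval from limma) and without VO 1 (open diamonds). Every diamond lies to the left of its point and to the right of 0, from 0.02 for Loxl1 to 0.74 for Tnc.

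Fn1 (ENSMUSG00000026193, GRCm38 chr1:71585520-71653200, minus strand) encodes fibronectin. Its level was 14.8, 22.3 and 24.7 FPKM in sham 1 to 3 and 52.4, 28.7 and 28.8 FPKM in VO 1 to 3. All VO libraries were above all sham libraries, and VO 2 and VO 3 were nearly level. The VO mean was 1.78 times the sham mean, with a log2 fold change of 0.80 (SE 0.288) and an adjusted p of 0.407 in limma. Without VO 1 the mean of the other VO libraries was 1.40 times the sham mean and the log2 fold change 0.51.

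Postn (ENSMUSG00000027750, chr3:54361109-54391037, plus strand) encodes periostin, a matricellular protein of activated fibroblasts and of the cardiac valves. It was read at 35.0, 34.0 and 39.4 FPKM in the sham libraries and at 106, 41.7 and 43.9 FPKM in the VO libraries. The groups did not overlap, but sham 3 and VO 2 were close, and most of the difference came from VO 1. The log2 fold change was 0.68 (SE 0.345, adjusted p of 0.438 in limma), and it was 0.25 without VO 1.

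Tnc (ENSMUSG00000028364, chr4:63959785-64047015, minus strand) encodes tenascin-C, a large hexameric glycoprotein that is scarce in resting adult tissue. Its level was 0.496, 0.814 and 0.640 FPKM in the sham group and 2.58, 1.02 and 1.26 FPKM in the VO group. The groups did not overlap, and Tnc had the largest log2 fold change of the 10 genes, at 1.11 (SE 0.404, adjusted p of 0.408 in limma). Its median was 81 fragments in the sham and 161 in the VO libraries, the lowest depth among the members. Without VO 1 its mean over the other VO libraries was 1.75 times the sham mean, and the log2 fold change was 0.74. A pseudocount of 1 gave 0.63 with all libraries for Tnc.

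Sparc (ENSMUSG00000018593, chr11:55394500-55423183, minus strand) encodes SPARC, also called osteonectin, which binds collagen and calcium. It had 413, 367 and 353 FPKM in the sham libraries and 472, 397 and 457 FPKM in the VO libraries. Sham 1 lay above VO 2, so the groups overlapped. The log2 fold change was 0.23 with a 95% interval of -0.10 to 0.55 (adjusted p of 0.486 in limma), and it was 0.18 without VO 1. With quantile normalization it was 0.54 and with TPM 0.37, both with an unadjusted p under 0.05, and neither passed adjustment.

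The windows before the start sites of Postn and Tnc are shown because both genes were higher in every VO library and both windows adjoin the start of the gene in the deposited table. RefSeq sequence of build GRCm38.p6 was at hand for 4 of the 10 genes, Postn, Tnc, Fbn1 and Sparc. The 250 bases before the first transcribed base are printed 5′ to 3′ on the strand of the gene, chr3:54360857-54361106 for Postn and chr4:64047016-64047265 for Tnc, with the matches of TATAAA and of GGGCGG in capitals.
Postn: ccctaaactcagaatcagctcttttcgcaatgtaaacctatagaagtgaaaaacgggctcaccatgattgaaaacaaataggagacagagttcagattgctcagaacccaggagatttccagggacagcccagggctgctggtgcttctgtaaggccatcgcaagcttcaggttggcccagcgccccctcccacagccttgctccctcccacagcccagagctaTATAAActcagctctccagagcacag
Tnc: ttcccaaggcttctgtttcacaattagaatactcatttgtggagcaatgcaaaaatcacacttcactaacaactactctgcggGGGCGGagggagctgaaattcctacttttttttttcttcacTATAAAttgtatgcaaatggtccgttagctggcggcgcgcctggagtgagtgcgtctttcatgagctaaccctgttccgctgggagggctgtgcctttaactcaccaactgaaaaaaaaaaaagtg

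TATAAA, the letters of a TATA box core, began 26 bases before the start of Postn and 126 bases before that of Tnc. Of all such windows, 12.4% hold it on either strand. GGGCGG, a GC box, began 167 bases before the start of Tnc and 185 bases before that of Fbn1, and it occurs in 32.7% of all windows. The window of Sparc held neither. RefSeq gives a further start for Postn, and its window held neither. From a further start of Tnc, 79 bases within the gene, the same TATAAA and GGGCGG began 205 and 246 bases before it. The windows of Fbn1 and Sparc lie inside the span of the gene as the table gives it, since the RefSeq start is 1555 and 3103 bases within that span. None of the windows of the 4 genes held the AP-1 site TGANTCA (6.75% of all windows), the TEAD site GGAATG (12.6%) or a CArG box (1.47%). The matches describe the letters only.

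Among the elastic fibre genes, Eln (ENSMUSG00000029675, chr5:134702593-134747323, minus strand) encodes the elastin precursor. Its level was 62.8, 80.8 and 62.7 FPKM in sham 1 to 3 and 231, 88.4 and 96.5 FPKM in VO 1 to 3. The groups did not overlap, though VO 2 exceeded sham 2 by little, and VO 1 stood far above the rest. The mean over VO was 139 ± 79.9 FPKM against 68.7 ± 10.4 FPKM in sham (SD, n = 3), a ratio of 2.01. The log2 fold change was 0.88 (SE 0.357, adjusted p of 0.414 in limma) and 0.44 without VO 1.

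Fbn1 (ENSMUSG00000027204, chr2:125300594-125507993, minus strand) encodes fibrillin-1, the main microfibril protein after birth. It was at 14.0, 21.6 and 17.3 FPKM in the sham and at 36.9, 22.7 and 27.7 FPKM in the VO libraries. The groups did not overlap, with sham 2 just below VO 2. Its log2 fold change of 0.72 (SE 0.222) had the smallest p of the 10 genes, 0.0142 unadjusted and 0.404 adjusted in limma, and it was 0.53 without VO 1.

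Fbn2 (ENSMUSG00000024598, chr18:58008623-58209926, minus strand) encodes fibrillin-2, the microfibril protein of embryonic tissue. Its sham levels were 0.711, 1.00 and 0.621 FPKM, and its VO levels were 2.68, 0.995 and 1.05 FPKM. Sham 2 lay above VO 2, so the groups overlapped, and the log2 fold change of 0.81 (SE 0.427, adjusted p of 0.447 in limma) was 0.38 without VO 1 and 0.48 with a pseudocount of 1. Fibrillin-2 made up 4.25% ± 0.708 of the summed fibrillin FPKM in sham and 4.87% ± 1.66 in VO (SD, n = 3). The shares overlapped, so fibrillin-1 was the prevailing fibrillin in both groups. Elastin over fibrillin-1, as a ratio of FPKM, was 3.63 to 4.50 in the sham libraries, 6.24 in VO 1, and 3.89 and 3.49 in VO 2 and VO 3. That ratio was above the sham range in VO 1, within it in VO 2 and a little below it in VO 3.

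Of the lysyl oxidases, Lox (ENSMUSG00000024529, chr18:52516069-52529867, minus strand), the founding member of the family, was read at 5.80, 6.65 and 5.15 FPKM in sham and at 15.4, 6.95 and 9.48 FPKM in VO. The groups did not overlap, and VO 2 was close to sham 2. The log2 fold change was 0.78 (SE 0.276, adjusted p of 0.406 in limma) and 0.47 without VO 1.

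Loxl1 (ENSMUSG00000032334, chr9:58287738-58313186, minus strand), known for its part in the upkeep of elastic fibres, was at 38.0, 39.2 and 36.8 FPKM in sham and at 50.1, 38.5 and 38.2 FPKM in VO. VO 2 and VO 3 lay within the sham range. The log2 fold change of 0.14 had a 95% interval of -0.17 to 0.46 (adjusted p of 0.619 in limma), and without VO 1 it was 0.02. It was 0.28 with TPM and 0.30 with quantile normalization.

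Loxl2 (ENSMUSG00000034205, chr14:69609068-69695834, plus strand), which crosslinks collagen IV among other substrates, was at 9.72, 13.3 and 12.4 FPKM in sham and at 23.4, 13.7 and 14.8 FPKM in VO. The groups did not overlap, but VO 2 exceeded sham 2 by little. Its log2 fold change was 0.52 (SE 0.225, adjusted p of 0.414 in limma) and 0.28 without VO 1.

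The makeup of the 3 lysyl oxidases was also taken as shares of their summed FPKM in each library. Loxl1 held 71.0%, 66.3% and 67.7% of the sum in the sham libraries and 56.3%, 65.1% and 61.2% in the VO libraries, so each VO library was below each sham library. Lox held 10.5% ± 0.922 in sham and 14.8% ± 2.83 in VO, and Loxl2 held 21.1% ± 2.58 and 24.4% ± 1.71 (SD, n = 3). For both, every VO library was above every sham library, VO 2 by the smallest step. The 3 shares sum to 100% in each library, so they are not independent of each other, and they were not tested.

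**Figure D3:**
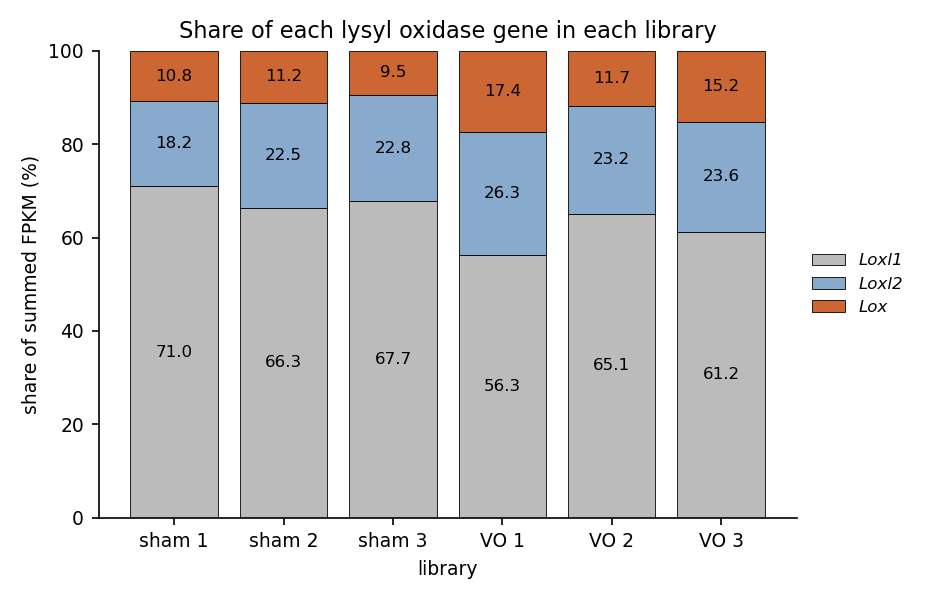
Share (%) of Loxl1, Loxl2 and Lox in their summed FPKM, stacked for each library. The grey Loxl1 part is smallest in VO 1 at 56.3% and largest in sham 1 at 71.0%, and it is smaller in each VO library than in any sham library.

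Across the 6 libraries the 10 genes varied together. The median Pearson r over their 45 pairs was 0.915, from 0.540 for Fn1 and Sparc to 0.992 for Fbn2 and Eln, where each pair shares the same libraries and the high value of VO 1. Over the 5 libraries without VO 1 the median was 0.680, and 44 of 45 pairs stayed above 0. The exception was Postn and Loxl1. The genes outside the list most like the mean of the 10 over 6 libraries were Cx3cr1, a chemokine receptor of macrophages, with r = 0.995, Lilrb4a, an inhibitory receptor of myeloid cells (r = 0.995), Resf1 (r = 0.994), Dab2, an endocytic adaptor (r = 0.992), and Pcgf6, a Polycomb group protein (r = 0.990). Cx3cr1 was read at 2.68, 3.73 and 3.08 FPKM in sham and at 12.3, 4.62 and 4.68 FPKM in VO. VO 1 was its highest library, which follows from the choice of Cx3cr1 by its likeness to a mean that is highest in VO 1.

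Markers of several cell types moved with VO 1 or with the groups. The 6 macrophage markers (Adgre1, Csf1r, Cd68, Fcgr1, Mrc1 and Cd163) summed to 55.5 to 58.3 FPKM in sham and to 176, 61.8 and 76.8 FPKM in VO 1 to 3. All 6 had a mean above that of sham, 3 of them without overlap (8.25% of all tested genes), and Adgre1 was at 62.1 FPKM in VO 1 against 9.76 to 14.6 FPKM in the other libraries. The 8 atrial cardiomyocyte markers, led by Myl7 and Actc1, summed to 20103 to 26191 FPKM in sham and to 9243, 17301 and 13578 FPKM in VO. All 8 had a lower mean in VO, 5 without overlap (12.9% of all tested genes), and 4 had an unadjusted p under 0.05 in limma, where 8.08% of all tested genes did in that direction. None passed adjustment. The part of these cell types in the higher matrix gene levels was not tested.

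Fibroblast markers differed less. Their sum over 10 genes was 1047 to 1073 FPKM in sham and 1480, 1070 and 1302 FPKM in VO, and the median log2 fold change was 0.11. Most of the difference in sum lay in the collagens of that list. Col3a1 was at 208 to 275 FPKM in sham and at 475, 267 and 395 FPKM in VO, and Col1a1 and Col1a2 likewise overlapped between groups. In limma 2 of the 10 markers, Col3a1 and Col1a2, had an unadjusted p under 0.05, both higher in VO, against 3.89% of all tested genes. Neither passed adjustment. Of the 10 markers, 8 had a log2 fold change above 0 and 2 below. Ddr2, a collagen receptor, was at 8.15 to 9.25 FPKM in sham and at 9.64 to 11.4 FPKM in VO, the only marker of the list without overlap (log2 fold change 0.22). Of all tested genes, 8.25% were apart in that direction. The markers below 0 were Pdgfra, a receptor that marks cardiac fibroblasts, at 15.7 ± 1.78 FPKM in sham and 15.5 ± 0.607 in VO (SD, n = 3), and Dcn, which encodes decorin, at 282 ± 29.7 and 275 ± 21.1 FPKM. Relative to the mean log2 level of the 10 fibroblast markers, 9 of the 10 matrix genes were higher in VO in the mean, with a median difference of 0.53, and 4 of them, Fbn1, Eln, Tnc and Lox, did not overlap, against 1.65% of all tested genes on that scale. Loxl1 was the exception at -0.08, and Sparc was at 0.00. That marker mean was itself higher in every VO library, at 6.18, 5.82 and 6.00 against 5.75 to 5.80 in sham, a difference of 0.22. When Col1a1, Col1a2 and Col3a1 were left out of the markers, the mean of the other 7 differed by 0.08 with overlap. All 10 matrix genes were then above 0, the median was 0.67, and Fn1, Postn and Tnc did not overlap, against 3.38% of all tested genes. Tnc passed the filter only through the VO libraries, so its place in both of these counts is no support.

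**Figure D4:**
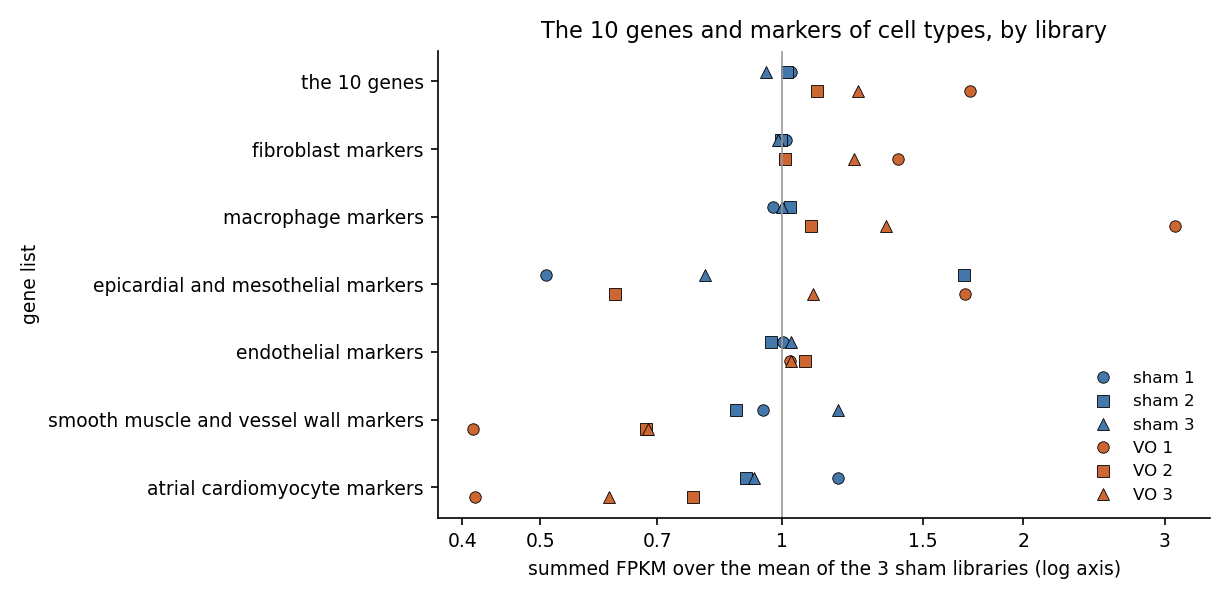
Summed FPKM of the 10 genes and of 6 marker lists in each library, divided by the mean of the 3 sham libraries (log axis). In VO 1 the macrophage markers are the farthest above the shams and the cardiomyocyte and smooth muscle markers the farthest below, while endothelial markers stay close to 1 in all libraries.

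The 6 endothelial markers summed to 202 to 213.4 FPKM in sham and to 213.1 to 222 FPKM in VO, with overlap. Single markers went both ways. Without overlap, 2 were higher in VO, Cdh5 (log2 fold change 0.28) and Tie1 (0.15), and 1 was lower, Emcn (-0.25). Of all tested genes, 8.25% and 12.9% were apart in these directions. Smooth muscle and vessel wall markers, which include the contractile genes Acta2 and Cnn1, summed to 180 to 241 FPKM in sham and to 84.8, 139 and 140 FPKM in VO 1 to 3. Acta2 had a log2 fold change of -0.999 without overlap (adjusted p of 0.373 in limma), whereas Myh11, the myosin of smooth muscle, was 0.01. Of 9 markers of activated fibroblasts 7 were tested, 4 above and 3 below 0. In limma 1 of them, Cthrc1, had an unadjusted p under 0.05 in the higher direction. In the lower direction 2 did, Acta2, which is in this list too, and Comp (log2 fold change -0.51 with overlap). All tested genes had 3.89% and 8.08%. Cthrc1, secreted by activated fibroblasts, had 0.928, 0.765 and 0.578 FPKM in sham and 3.87, 1.58 and 2.10 FPKM in VO. It had a log2 fold change of 1.54 without overlap and an adjusted p of 0.344 in limma. With a sham mean of 0.757 FPKM, Cthrc1 passed the filter only through the VO libraries, so its place in these counts is no support. The 6 epicardial and mesothelial markers were all above 0 with overlap, and they were high in sham 2 and VO 1, with sums of 111 FPKM in both, against 33.4 to 71.6 FPKM in the other libraries. The part of these cell types in the results was not tested.

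Markers of tissue that can adjoin the atrium varied by library. Adipocyte markers summed to 372 FPKM in VO 3, with Ucp1 of brown fat at 254 FPKM, and to 0.792 FPKM or less in the other libraries. The 3 ventricular markers summed to 306, 119 and 234 FPKM in sham and to 90.8 to 142 FPKM in VO. Myl2 was at 60.4, 2.02 and 56.0 FPKM in sham and at 6.95, 1.54 and 20.6 FPKM in VO. Irx4 was at 0.259 FPKM or less in all libraries. T cell and thymus markers summed to at most 2.56 FPKM and B cell markers to at most 7.92 FPKM, both highest in VO 1. Of 5 cartilage and valve markers only Sox9 was tested, at 1.59 to 2.69 FPKM in sham and 2.76 to 5.09 FPKM in VO. Matn1 was listed at 0 in every library. The part of these tissues in the results was not tested.

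Other genes of the same structures were less uniform in direction. Of 19 genes for other microfibril and elastic fibre proteins, 17 were tested, 11 above and 6 below 0, with a median log2 fold change of 0.11, and 3 had an unadjusted p under 0.05 in limma, all higher in VO, where 3.89% of all tested genes did. Mfap4, a microfibril-associated protein that binds elastin and collagen, was at 54.7, 39.7 and 45.4 FPKM in sham and at 101, 63.0 and 64.0 FPKM in VO. Its groups did not overlap, and the log2 fold change was 0.68 (SE 0.215, adjusted p of 0.404 in limma) and 0.46 without VO 1. Mfap5, a microfibril-associated glycoprotein, had 17.8, 17.2 and 17.1 FPKM in sham and 22.7, 20.9 and 23.0 FPKM in VO. VO 1 did not stand out here, and its log2 fold change of 0.35 (adjusted p of 0.373 in limma) was 0.33 without VO 1. Fbln2, a fibulin of the elastic fibre surface, had a log2 fold change of 0.33 without overlap, and Ltbp4, the most abundant partner, was at 184 ± 31.6 FPKM in sham and 194 ± 11.9 in VO (SD, n = 3) with overlap, a log2 fold change of 0.09 that was 0.35 with quantile normalization.

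Fibronectin receptors, mostly integrin subunits, divided in direction. Of 9 tested genes, 5 were above and 4 below 0 with a median of 0.02, and 2 had an unadjusted p under 0.05 in limma, both lower in VO, where 8.08% of all tested genes did. Itgb6, an integrin subunit of epithelia, was at 2.12, 2.21 and 1.80 FPKM in sham and at 1.07, 1.27 and 1.23 FPKM in VO, without overlap (log2 fold change -0.73, SE 0.188, adjusted p of 0.371 in limma, and -0.47 with a pseudocount of 1). Itga9 had a log2 fold change of -0.43 with overlap. Itga8, whose product pairs with the beta 1 subunit, was at 1.38 to 1.48 FPKM in sham and 1.58 to 2.70 FPKM in VO, without overlap (log2 fold change 0.49, and 0.30 without VO 1). Itgb1, the shared beta subunit, was at 174 ± 6.31 FPKM in sham and 176 ± 6.86 in VO (SD, n = 3), a difference within the spread, with a log2 fold change of 0.02 that was 0.29 with quantile normalization.

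Among 20 relatives of the matricellular members, 15 were tested, 10 above and 5 below 0 with a median of 0.18. Unadjusted p was under 0.05 for 3 in the higher and 1 in the lower direction, against 3.89% and 8.08% of all tested genes. Ctgf, which encodes connective tissue growth factor and was the most abundant of them, was at 214, 204 and 278 FPKM in sham and at 77.2, 160 and 129 FPKM in VO. All VO libraries were below all sham libraries, with a log2 fold change of -0.97 (SE 0.276, adjusted p of 0.391 in limma) and -0.67 without VO 1. Thbs2, which encodes thrombospondin-2, had a log2 fold change of 0.56 (0.35 without VO 1) and Nov, a relative of Ctgf, one of 0.43, both without overlap.

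Other crosslinking and processing enzymes, 19 in the list and 15 tested, had a median log2 fold change of -0.05, with 6 above and 9 below 0. A single gene had an unadjusted p under 0.05, in the lower direction, where 8.08% of all tested genes did. It was Tgm2, a transglutaminase that crosslinks fibronectin among other proteins, at 52.0, 54.0 and 56.6 FPKM in sham and at 45.2, 45.7 and 39.3 FPKM in VO, without overlap (log2 fold change -0.32, SE 0.107, adjusted p of 0.404 in limma). Plod1, a lysyl hydroxylase, had a log2 fold change of -0.25 without overlap. Pcolce2, an enhancer of procollagen processing, was at -0.34 and Serpinh1, the collagen chaperone and the most abundant gene of the list, at -0.32, both with overlap, and both were -0.21 without VO 1. With quantile normalization Serpinh1 was at -0.046, Tgm2 at -0.16 and Plod1 at -0.16. Lysyl oxidase genes outside the members were less abundant, with Loxl3 at 2.98 ± 0.434 FPKM in sham and 3.36 ± 0.519 in VO (SD, n = 3) and Loxl4 under the filter.

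**Figure D5:**
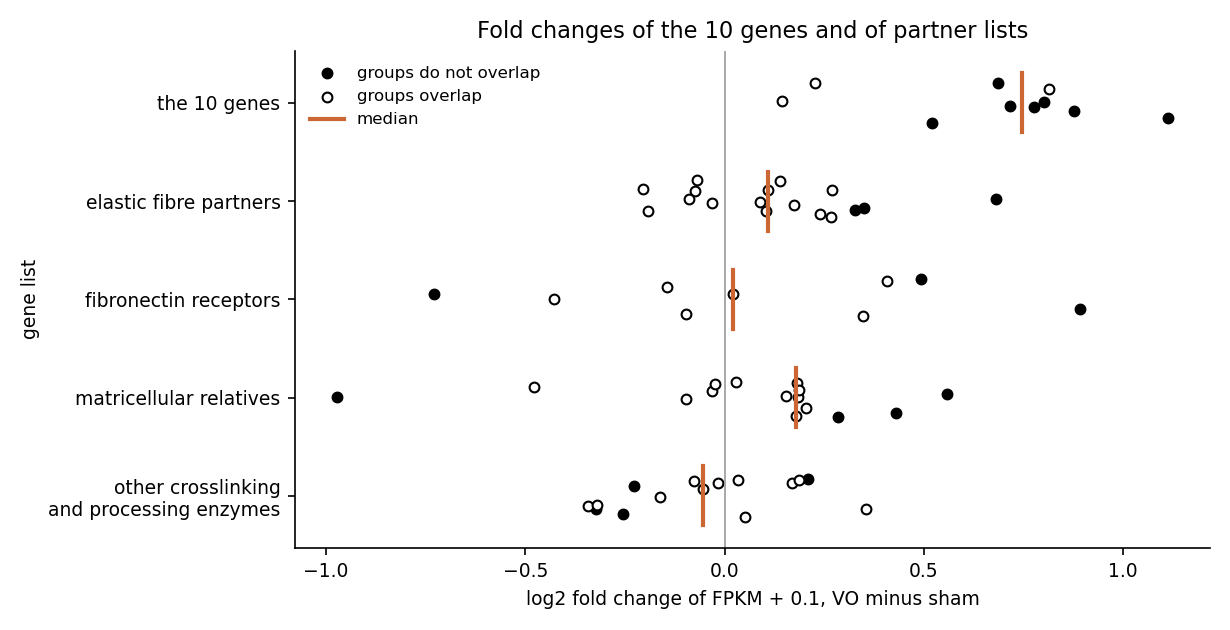
Log2 fold changes of FPKM + 0.1, VO minus sham, of the tested genes of 5 lists, with filled points where the groups do not overlap and an orange line at the median of each list. The medians are 0.75 for the 10 genes and between -0.05 and 0.18 for the 4 partner lists (vertical scatter within a list has no meaning).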

How the data were processed

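RNA of right atria was sequenced in 3 sham and 3 VO libraries at P21. The deposited values are FPKM per gene. The submitters' notes name HISAT2 2.0.5, featureCounts 1.5.0-p3, StringTie 1.3.3b, DESeq2 1.16.1 and GATK 3.7 and the build GRCm38, whose GENCODE M21 coordinates matched 98.4% of the 54039 shared genes. The version of the authors' annotation was not given in the sources used here. FPKM times gene length gave whole fragments for 100% of values (within 0.01). An incomplete line was left out. FPKM were scaled by median-of-ratios factors, which were 1.00 in every library, so this step changed nothing. They were filtered to a mean of at least 1 and taken as log2(FPKM + 0.1). The fit across 12627 genes was with limma 3.58.1 in R 4.3.3 (eBayes with trend, two-sided, Benjamini-Hochberg adjustment over all tested genes). The pseudocount understates the fold changes of low genes. The fit was tested on simulated data. Groups came from the titles of the samples. The 10 genes and all lists were chosen with earlier results of these data known. Besides the 10 genes, the text names from each of 4 partner lists the 3 genes with the smallest p and the most abundant, 5 genes most like the 10, and markers beside a result. Loxl3, Loxl4, Cthrc1, Acta2, Comp, Myh11, Cdh5, Tie1 and Emcn were named after their values were seen. Alternatives were other pseudocounts, filters and scalings, TPM, other variance settings, voom on recovered fragments, the replicate block and leaving out each library. Promoter windows were from RefSeq. DESeq2 was not run here.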

Additional observations from a re-analysis of the deposited data

How the results depend on the processing

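None of the 10 genes passed adjustment under any of the 18 alternatives, which were limma fits. All fold changes of the 10 that could be computed stayed above 0. FPKM as deposited repeated the main fit, since the scaling factors were 1.00, so that alternative adds nothing. The groups were apart for 7 to 9 of the 10 genes, with 9 under TPM (16.6% of all tested genes), without sham 2 (13.3%) and without VO 2 (16.2%), and for 6 of the 8 still tested without VO 1 (11.4%). TPM shifted the median log2 fold change of all genes from -0.01 to 0.13 and the share of higher calls from 32.5% to 69.0%, so TPM values are read relative to that shift. With TPM the medians were 0.25 for the elastic fibre partners, 0.32 for the matricellular relatives and 0.086 for the other crosslinking enzymes. With quantile normalization they were 0.19 for the elastic fibre partners and 0.29 for the fibronectin receptors, and a filter at 0.1 FPKM gave 0.0075 for the crosslinking enzymes.

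No sign of pairing by replicate number was seen: same-numbered libraries deviated from their group means with correlations of -0.108, 0.0112 and -0.0292. With 3 libraries per group, these values are too few to show that there was none. With a replicate block, 2 of the 10 genes and 932 of all tested genes had an unadjusted p under 0.05, against 5 and 1511 without it, and no adjusted call differed among the 10 genes.

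Leaving out each library in turn gave 1 to 7 of the 10 genes an unadjusted p under 0.05, with 1 without sham 1, 2 without sham 3 and 3 without VO 1. It gave 853 to 2001 of all tested genes, with 853 without sham 1 and 928 without VO 1. The filter was applied anew each time, so some medians rest on fewer genes. The medians of the members ranged from 0.36 (without VO 1, 8 genes tested) to 0.93, and without VO 1 it was 0.41 with all 10 kept. For the elastic fibre partners they ranged from -0.00065 (without sham 1) to 0.19. For the crosslinking enzymes they ranged from -0.13 (without sham 3, 14 genes tested) to -0.013 (without VO 1, 14 genes tested). They ranged from -0.059 (without VO 1, 8 genes tested) to 0.16 (without sham 1) for the fibronectin receptors and from 0.092 (without VO 1) to 0.21 for the matricellular relatives. Ltbp4 ranged from -0.058 (without sham 1) to 0.19 and Itgb1 from -0.0083 (without VO 1) to 0.051. With quantile normalization they were 0.35 and 0.29. Without VO 1, Fbn2 and Tnc fell under the filter, so a fit chosen after seeing the data kept the genes of the full comparison, and it gave 3 of the 10 genes and 937 of all genes an unadjusted p under 0.05. The cause of these differences was not tested.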
